A study of Mus musculus with 16 samples.

Results

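The cadherin loci described here are 3 regions of the mouse genome (mm9) named for Cdh11, Cdh2 and Cdh1, in which the summits of H3K4me1 peaks were counted in 3T3 fibroblasts and in dendritic cells. The regions are chr8:105050000-106640000 for Cdh11 and the stretch beyond it (1590 kb), chr18:16650000-17100000 for Cdh2 (450 kb) and chr8:109080000-109220000 for Cdh1 (140 kb). They were chosen by gene with earlier results of these data known and, for the Cdh11 region, from the summit numbers of these same lists. Every value below is therefore a description and none is a test. The regions held 199 of the 161656 summits of both lists, 182 of the 81860 in 3T3 and 17 of the 79796 in dendritic cells.

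Both lists come from chromatin immunoprecipitation with an antibody against H3K4me1 followed by sequencing, in cells that had not been stimulated. The 3T3 cells, an established mouse fibroblast line, were grown under routine conditions and carried no stated alteration. The dendritic cells were grown from mouse bone marrow progenitors in GM-CSF with SCF and then in GM-CSF alone, and their progenitors had been infected with a retrovirus whose hairpin targets the histone demethylase JmjD2d, so cell type and hairpin cannot be told apart. Strain and age of the animals are not stated in the labels. The remaining 14 of the 16 samples (stimulated cells, acetylated histones and input DNA) were not analysed here. Each cell type is 1 library with no replicate. Read depth is unknown, so where a list has no summit the mark may still be present below the calling threshold. The sample used for 3T3 is 3T3 by its title, description, culture and list header, although its cell type field reads dendritic cells.

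Cadherins are calcium-dependent adhesion molecules that join cells of a tissue by binding the same cadherin on the neighbouring cell, and their cytoplasmic tails connect to actin through catenins. Cdh1 (E-cadherin) is the main cadherin of epithelia and is also found on Langerhans cells and on dendritic cells grown in GM-CSF. Cdh2 (N-cadherin) is carried by neurons, muscle and many mesenchymal cells, and Cdh11 (OB-cadherin) by osteoblasts and fibroblasts such as those of the synovium. H3K4me1, monomethylated lysine 4 of histone H3, lies over enhancers, both poised and active, and beside promoters. It does not by itself report whether a gene is transcribed.

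The 3 regions differed in how summits were divided between the cell types. The Cdh11 region held 153 summits in 3T3 (exact Poisson 95% interval 130 to 179) and 1 in dendritic cells (0.0253 to 5.57). In the Cdh2 region there were 14 summits in 3T3 (7.65 to 23.5) and none in dendritic cells, for which the exact Poisson interval ends at 3.69. The Cdh1 region held 15 summits in 3T3 (8.40 to 24.7) and 16 in dendritic cells (9.15 to 26.0). Thus the Cdh11 and Cdh2 regions held summits on the fibroblast side alone or nearly so, and the Cdh1 region held summits in both. Per 100 kb, this was 9.62 in 3T3 against 0.0629 in dendritic cells for Cdh11, 3.11 in 3T3 for Cdh2, and 10.7 in 3T3 against 11.4 in dendritic cells for Cdh1. The density of 3T3 summits was therefore similar in the Cdh11 and Cdh1 regions, and that of dendritic cell summits differed. That difference restates the choice of the Cdh11 region, which summit numbers entered, and is not a finding. The intervals cover counting error only and treat summits as independent.

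**Figure D1:**
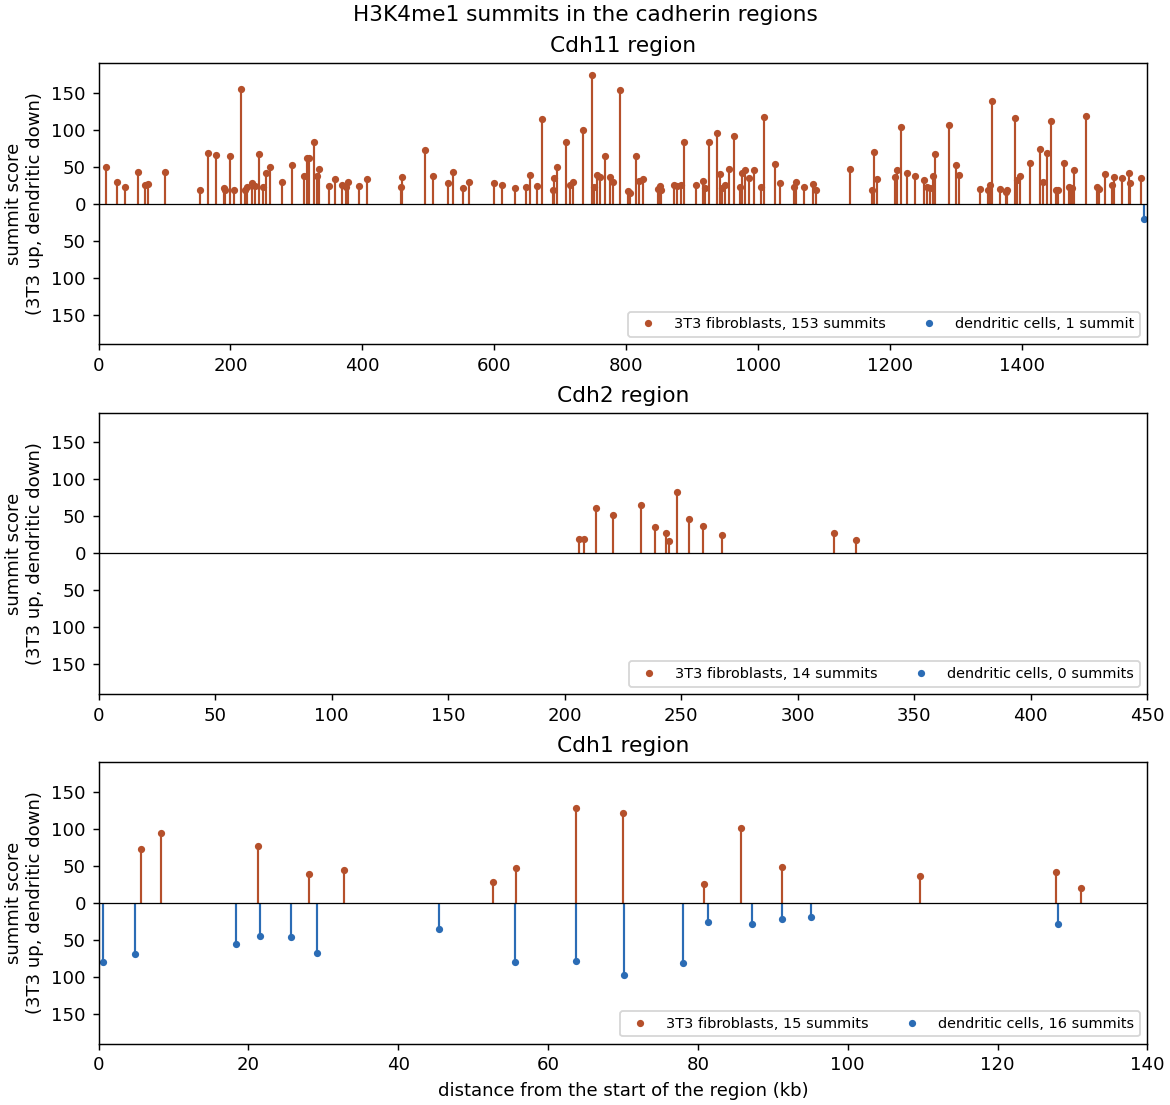
Each stem is 1 H3K4me1 summit at its distance from the start of the region (kb), with its score drawn upward for 3T3 fibroblasts and downward for dendritic cells; scores of the 2 lists are not scaled to each other. The 153 3T3 summits fill the Cdh11 region against 1 dendritic cell summit at its far end, the 14 of Cdh2 form one island, and Cdh1 has 15 3T3 and 16 dendritic cell summits interleaved.

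The ratio of summit numbers, 3T3 over dendritic cells, was 153 for Cdh11 (exact 95% interval 27.1 to 6082) and at least 4.67-fold higher in 3T3 for Cdh2, taking 3 counts as the floor of the dendritic cell library. That bound leaves out the counting error of the 14 summits in 3T3, with which the exact 95% interval of 14 against 0 begins at a ratio of 3.32. For Cdh1 it was 0.938 (0.432 to 2.02). A 3T3 number at least 2-fold higher, after adding 0.5 to each count, was found in 18.0% of windows as long as the Cdh11 region, tiled over all chromosomes and holding a summit of either list, in 26.4% of those as long as the Cdh2 region and in 30.4% of those as long as the Cdh1 region. With windows empty in both lists kept, these shares were 16.7, 21.1 and 20.6%. The Cdh11 and Cdh2 regions passed that fold and the Cdh1 region did not. Since summit numbers entered the choice of the Cdh11 region, and the others were chosen with the data known, nothing is read from this. A 2-fold excess was itself common for windows as short as those of Cdh2 and Cdh1.

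The windows describe how the number of 3T3 summits and the lack of dendritic cell summits were combined at Cdh11, a region chosen from such numbers. Among the 1550 windows of 1590 kb with a summit of either list, the median was 47 3T3 summits and 45 dendritic cell summits, and 98.7% had fewer 3T3 summits than the Cdh11 region. Of these windows, 20 had at least 153 3T3 summits, 120 had at most 1 dendritic cell summit, and none had both. Another 120 windows held no summit of either list, so that 240 of 1670 had at most 1 dendritic cell summit. The tiled window that overlaps most of the region, from 104940001 to 106530000, came closest with 151 3T3 summits and 1 dendritic cell summit. The next in 3T3 number among the 119 other windows with any summit and at most 1 dendritic cell summit held 86. Chromosome 8 had a median of 71.5 3T3 and 36.5 dendritic cell summits in its 80 windows with any summit, of which 95% had fewer 3T3 summits than the Cdh11 region and 25% passed the 2-fold difference. The part of this higher 3T3 median in the number at Cdh11 was not tested.

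**Figure D2:**
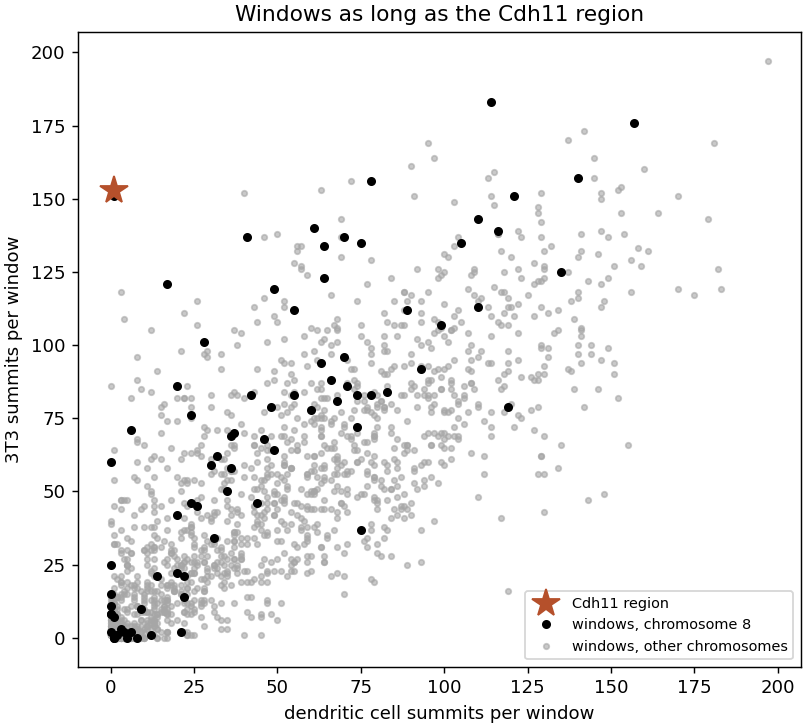
Each point is a window as long as the Cdh11 region with a summit of either list, placed by its number of dendritic cell summits (horizontal) and 3T3 summits (vertical); the star is the Cdh11 region and black points are windows of chromosome 8. The star stands at 153 3T3 summits and 1 dendritic cell summit, where apart from the tiled window overlapping it no other window lies near.

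At Cdh11 the 3T3 summits ran from 105061586 to 106630558, a span of 1569 kb. All 153 lacked a dendritic cell summit within 1000 bp, against 70.2% of all 3T3 summits, a property that entered the choice of the region. Their median distance to a dendritic cell summit was 374422 bp, and the farthest lay 794831 bp away, against a median of 3578 bp over the whole 3T3 list. The single dendritic cell summit, at 106635031 with a score of 20, lay 4473 bp beyond the last 3T3 summit. Its score is below the 25th percentile of the dendritic cell list, which is 26. It too had no counterpart within 1000 bp, as did 69.4% of all dendritic cell summits.

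Seen from the dendritic cell list, the region is a gap. Between the dendritic cell summits at 105042393 (score 24) and 106635031 there were 1593 kb without another. By length this gap ranked 214 among 79774 gaps between neighbouring dendritic cell summits. By the number of 3T3 summits inside it, 153, it ranked 1, but summit numbers entered the choice of the region. The next gap by that number, on chromosome 6, came close with 152 in 1815 kb, and the one after it held 117. Longer gaps in the dendritic cell list were thus present elsewhere, and no other gap held as many 3T3 summits. Neighbouring 3T3 summits inside the region were never more than 53.1 kb apart. Their median spacing was 7426 bp, against 9167 bp over the whole 3T3 list, and 92 of the 152 spacings were at most 10 kb.

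The summits of the Cdh11 region were many but of ordinary height. The score, read here as signal height at the summit since the header leaves it unnamed, had a median of 33 in the region (exact 95% interval of the median 28 to 37) and of 33 in the whole 3T3 list. The middle of the distribution ran from 23 to 50 in the region and from 24 to 50 in the list. The rest of chromosome 8 had a higher 3T3 median, 38. Of the 153 summits, 18 (11.8%, exact Clopper-Pearson interval 7.12 to 18.0) reached the list's 90th percentile of 75, as did 10.1% of all 3T3 summits. The lowest score in the region was 14 and 15 summits scored below 20.

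Some summits of the Cdh11 region were tall. The highest, at 105797517, scored 174 and ranked 273 in the whole 3T3 list. The next were at 105266195 with 155 and at 105840200 with 154. In all, 12 summits scored 100 or more, and they were spread from 105266195 to 106546483 with a median spacing of 61.5 kb and a widest of 457 kb. Cut into 5 parts of equal length from low to high coordinates, the region held 27, 22, 39, 30 and 35 3T3 summits. Of the 12 high summits, the same 5 parts held 1, 0, 4, 2 and 5. The middle part, from 105686001 to 106004000, had both the most summits and the highest one.

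**Figure D3:**
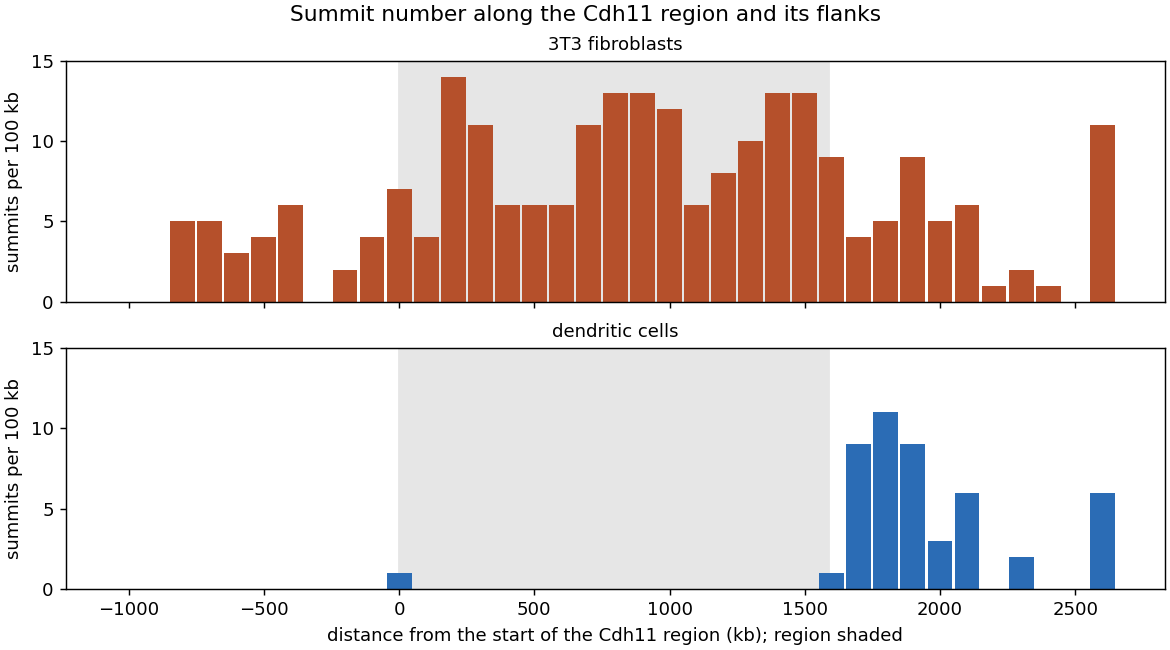
Bars give the number of summits per 100 kb bin in 3T3 fibroblasts (top) and dendritic cells (bottom) along the Cdh11 region, shaded, and about 1 Mb on either side. The 15 bins wholly inside hold 4 to 14 3T3 summits and no dendritic cell summit; dendritic cell bars begin just past the right-hand limit.

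In bins of 100 kb, the 15 that lay wholly inside the region held 4 to 14 3T3 summits, with a median of 11, and no dendritic cell summit. All 15 passed the 2-fold difference, as did 31.0% of all bins with any summit. Where a bin has no dendritic cell summit, any 3T3 summit passes it, and the region was chosen from such numbers. Nothing is therefore read from the 15. Passing was not particular to the region. Of the 11 bins before these, including the one cut by the lower limit, 8 passed. Of the 11 bins after them, including the one cut by the upper limit, 3 passed. The bins were not equally filled. The fullest, from 105200001 to 105300000, held 14, whereas the 3 bins from 105400001 to 105700000 held 6 each and that from 105100001 to 105200000 held 4. Joining 3T3 summits up to 10 kb apart split the region into 61 stretches, of which 28 were single summits and 7 held 5 or more. The largest were 2 stretches of 11 summits each, from 105987573 to 106044247 and from 106477728 to 106529351, which ranked joint 181 among 38307 such stretches of the 3T3 list. A stretch of 9 summits ran from 105266195 to 105309479. At this joining distance the region was thus many separate clusters rather than 1 unbroken stretch, and the fullest 3T3 stretch of the genome held 22 summits.

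The 2 sides of the region differed. In the 500 kb before it there were 17 3T3 summits (9.90 to 27.2) and 1 dendritic cell summit (0.0253 to 5.57). In the 500 kb after it there were 32 3T3 summits (21.9 to 45.2) and 35 dendritic cell summits (24.4 to 48.7). On the lower side the lack of dendritic cell summits thus extended past the limit while 3T3 summits became fewer, and on the upper side the dendritic cell list resumed. On both sides 3T3 summits continued past the limit. The 3T3 summits nearest the lower limit were at 105029712 (score 28) outside and 105061586 (score 50) inside, and those nearest the upper limit were at 106630558 (score 35) inside and 106645633 (score 27) outside. The first dendritic cell summit past the upper limit was at 106700061 and scored 65.

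The gene order around Cdh11 is known here only from RefSeq for GRCm38.p6, another build, so no summit was assigned to an exon, intron or promoter. In that table Cdh11 (gene ID 12552) is followed by Cdh5, the VE-cadherin of endothelial cells, as the next protein-coding gene toward higher coordinates, with 10 long non-coding RNA genes and 2 pseudogenes between them. On the other side the next protein-coding gene is Cdh8, a cadherin of the nervous system. How much of the 1590 kb lies inside Cdh11, and whether the region reaches Cdh5, was not determined.

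At Cdh2 the 14 summits of 3T3 formed an island. They lay between 16856129 and 16974839, 119 kb of the 450 kb, with 206 kb before them and 125 kb after them inside the region that held no summit of either list. The nearest 3T3 summits outside were at 15308411 and 20118703, so that the list had gaps of 1548 and 3144 kb on either side. The dendritic cell list had none from 15710878 to 17164963, a gap of 1454 kb that ranked 241 by length. The summit at 17164963, 65.0 kb past the upper limit, scored 69, above the list's 75th percentile of 55. The lack of dendritic cell summits at Cdh2 thus came with a stretch where 3T3 summits, too, were absent outside the island. Of the 4686 windows of 450 kb with a summit of either list, 46.5% had fewer 3T3 summits than the region, and with empty windows kept 57.3% of 5873 had fewer.

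Within the island, the highest summits were at 16898058 with a score of 83, at 16882884 with 66 and at 16863547 with 62. The lowest scored 17 and the median was 31.5 (exact interval 19 to 62), against 33 in the whole list and 32 in the rest of chromosome 18. Only the summit at 16898058 reached the list's 90th percentile. Joined up to 10 kb, the island fell into stretches of 4, 8 and 2 summits. That of 8, from 16882884 to 16917667, held the highest summit and had more summits than 97.7% of the 3T3 stretches. All 14 lacked a dendritic cell summit within 1000 bp, against 70.2% of all 3T3 summits, and the nearest one was 190124 bp away. This follows from the lack of any dendritic cell summit in the region. In GRCm38.p6 the protein-coding neighbours of Cdh2 (gene ID 12558) are Chst9, a sulfotransferase gene, and Dsc3, which encodes a desmosomal cadherin.

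**Figure D4:**
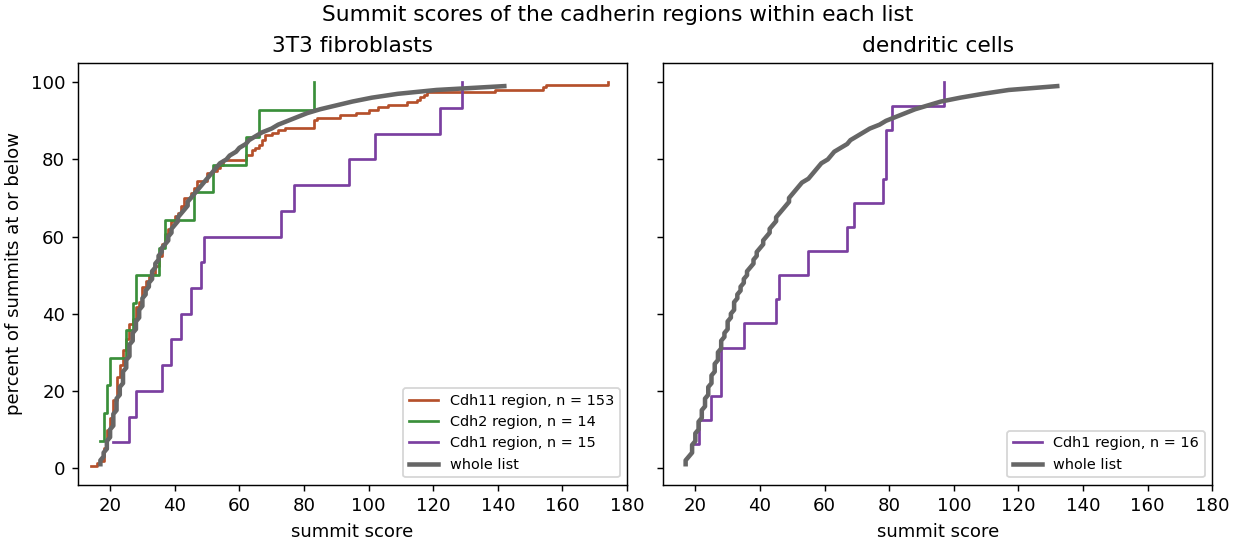
Curves give the percent of summits at or below each score for each region with more than 1 summit and, in grey, for the whole list (1st to 99th percentile), in 3T3 fibroblasts (left) and dendritic cells (right). The Cdh11 and Cdh2 curves follow the list in 3T3. The Cdh1 curve runs to the right of it at most scores in 3T3, and only at middle scores in dendritic cells. Its medians are 48 in 3T3 and 50.5 in dendritic cells.

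At Cdh1 both cell types were densely marked, and their median scores were above those of the whole lists. The median score was 48 in 3T3 (exact interval 36 to 94), against 33 in the whole 3T3 list and 38 in the rest of chromosome 8. In dendritic cells the median was 50.5 (28 to 79), against 36 in the whole list and 37 in the rest of the chromosome. The 90th percentile of the own list was reached by 5 of 15 summits in 3T3 (33.3%, 11.8 to 61.6) and by 4 of 16 in dendritic cells (25%, 7.27 to 52.4). With so few summits these intervals are wide, and the interval for dendritic cells contains the list's 10.2%. The interval of the median contains that of the rest of chromosome 8 in both cell types. In dendritic cells it also contains the median of the whole list. Of windows of 140 kb with a summit of either list, 91.2% had fewer 3T3 summits and 91.5% fewer dendritic cell summits than the Cdh1 region, and with empty windows kept 94.1 and 94.2%. Within chromosome 8 these values were 80.8% for 3T3 and 93.1% for dendritic cells.

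About as many summits of the Cdh1 region were shared as not. In 3T3, 7 of 15 (46.7%, 21.3 to 73.4) had no dendritic cell summit within 1000 bp, against 70.2% over the whole 3T3 list. In dendritic cells, 8 of 16 (50%, 24.7 to 75.3) had no 3T3 summit within that distance, against 69.4% over the whole list. The 3T3 interval reaches above 70.2% and the dendritic cell interval above 69.4%, so a higher degree of sharing than elsewhere was not detectable with these numbers. Of the summits without a counterpart, 6 of 7 in 3T3 and 6 of 8 in dendritic cells had a summit of the other cell type within 5 kb. Over the whole lists this held for 37.4% of such summits in 3T3 and 41.3% in dendritic cells. Summits were also denser at Cdh1, with a median spacing of 6473 bp in 3T3 and 5793 bp in dendritic cells. Over the whole lists the median spacing was 9167 bp in 3T3 and 8173 bp in dendritic cells. The part of this density in the higher shares within 5 kb was not tested. The exception in 3T3 was the summit at 109189635, with a score of 36, whose nearest dendritic cell summit was 14498 bp away. In dendritic cells the exceptions were the summits at 109080595, 5085 bp from a 3T3 summit, and at 109125459, 7129 bp from one.

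The shared summits of Cdh1 formed 8 mutually nearest pairs, 40 to 877 bp apart, and 6 of them were within 300 bp. The closest pair held the highest 3T3 summit, at 109143777 with a score of 129, and a dendritic cell summit at 109143737 with 78. The neighbouring pair joined the second highest 3T3 summit, at 109149975 with a score of 122, to the highest dendritic cell summit, at 109150084 with 97. The highest and second highest 3T3 summits of the locus thus each had a dendritic cell summit at nearly the same bases. By score, the dendritic cell summit at 109143737 ranked 5 among the 16 of the region. A pair 8 kb before, at 109135675 in 3T3 and 109135593 in dendritic cells, scored 48 in 3T3 and 79 in dendritic cells. It was the only one of the 8 with the lower score in 3T3.

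Further along, the pair at 109171189 in 3T3 and 109171293 in dendritic cells scored 49 in 3T3 and 21 in dendritic cells. That at 109101290 in 3T3 and 109101504 in dendritic cells scored 77 in 3T3 and 45 in dendritic cells. The pair at 109207743 in 3T3 and 109208027 in dendritic cells scored 42 in 3T3 and 28 in dendritic cells. In the other two, scores were close, with 73 in 3T3 and 69 in dendritic cells at 109085680 and 109084803, and 26 in 3T3 and 25 in dendritic cells at 109160790 and 109161406. The lists are not scaled to each other, so these scores were set beside the median ratio of all 24378 pairs of the genome. Relative to it, the log2 ratio of 3T3 to dendritic cells at Cdh1 had a median of 0.58 and ran from -0.60 to 1.34. Of the 8 pairs, 7 lay above 0, as did 12187 of the 24378 and 997 of the 1400 on chromosome 8.

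Only the pair at 109171189 was at least 2-fold higher in 3T3, as were 11.9% of all pairs, and none was at least 2-fold higher in dendritic cells, as were 11.6% of all pairs. The 1400 pairs of chromosome 8 had a median of 0.47 on the same scale, close to the 0.58 of Cdh1. The part of the chromosome in the ratios at Cdh1 was not tested.

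**Figure D5:**
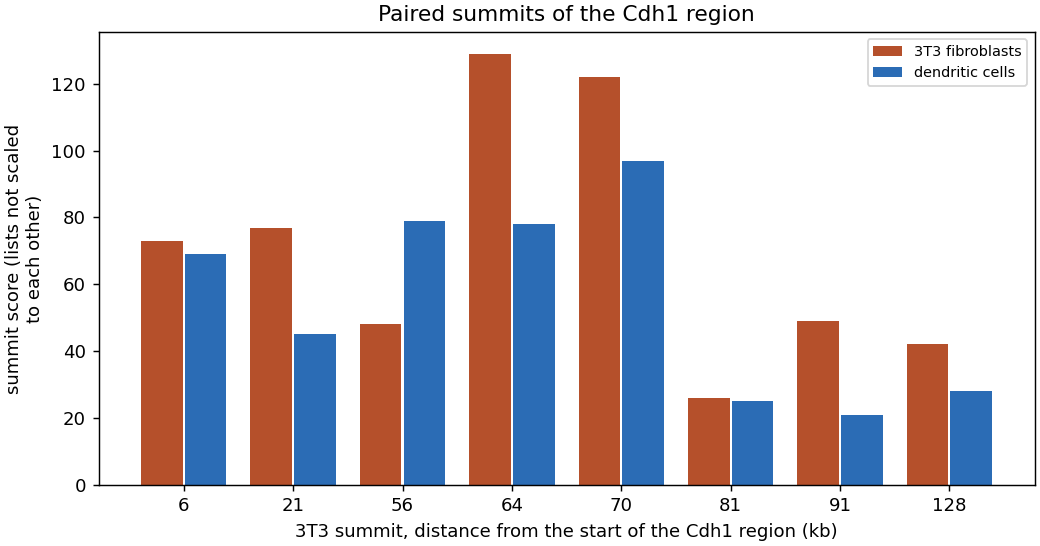
Bars give the scores of the 8 paired summits of the Cdh1 region in 3T3 fibroblasts (left of each pair) and dendritic cells (right), ordered by distance from the start of the region (kb). The tallest pairs, 129 in 3T3 with 78 in dendritic cells and 122 in 3T3 with 97 in dendritic cells, lie 64 and 70 kb from the start, and the pair at 56 kb is the one with the lower score in 3T3 (48 against 79 in dendritic cells).

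Beyond the pairs, the tallest summits called at Cdh1 in one cell type without a counterpart within 1000 bp were at 109165704 in 3T3, with a score of 102 and a dendritic cell summit 1495 bp away, and at 109158053 in dendritic cells, with a score of 81 and a 3T3 summit 2737 bp away. In dendritic cells the region held 1 long stretch, of 8 summits from 109135593 to 109175137, which had more summits than 96.4% of the dendritic cell stretches and contained 6 3T3 summits. In 3T3 the largest stretch held 4 summits, from 109132588 to 109149975. The limits of the region cut through dense marking, with a dendritic cell summit 0.595 kb inside the lower limit (score 79) and another 0.843 kb outside the upper limit (score 92). In 3T3 the nearest summit inside the lower limit was at 109085680 (score 73), and the last one before it, at 109053090, scored 157. In the flanking 500 kb there were 48 3T3 and 35 dendritic cell summits before the region, and 45 3T3 and 46 dendritic cell summits after it. The marking at Cdh1 was therefore part of a densely marked neighbourhood in both cell types. In GRCm38.p6 the protein-coding neighbours of Cdh1 (gene ID 12550) are Cdh3, the P-cadherin of epithelia, and Tango6, a gene of Golgi organisation.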

How the data were processed

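H3K4me1 summit lists of unstimulated 3T3 fibroblasts and unstimulated dendritic cells were used, 1 library each, grouped by sample title. Per the labels' protocols, fixed chromatin was sheared to about 300 bp, amplified for 18 PCR cycles and read as 36 bp single reads. Per the submitters' processing notes, Bowtie and MACS 1.4 were used on mm9. Per the file headers, summits were called at a threshold of 1e-04 without a fragment model or local background, with reads shifted by 150 bp. Use of input is not stated. The authors deposited a position and an unnamed whole-number score per summit, read here as a signal height.

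Counterparts were sought within 1000 bp, pairs were mutually nearest, and stretches joined summits of 1 list up to 10 kb apart. Windows were tiled from the first base of each chromosome, the last one, at the last summit, being shorter, and those with a summit of either list were used. Intervals are exact at 95%. The functions were tested on simulated lists. Named summits were the 3 highest per region and list, all of a list with 5 or fewer, and all pairs. Others, beside a limit or edge, at an exception or tallest without a counterpart, were chosen after their values were seen. The members and lists were chosen with earlier results of these data known. Cell type markers could not be placed on mm9 and were not examined. Alternatives were other distances, limits and bin sizes, the highest summits of each list, and, added later, chromosome 8 alone and windows without summits kept. Computation used Python 3.11.15 with numpy 2.4.6, pandas 2.3.3 and scipy 1.17.1, and plots used matplotlib 3.10.9.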

Additional observations from a re-analysis of the deposited data

How the results depend on the processing

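Of 75 alternatives, 54 left the value within its counting interval or, for counts, within 1.5 times, and 21 moved it. Whether a direction reversed was not scored. Restricted to the 39898 highest summits of each list, the Cdh11 region held 76 summits in 3T3 and 0 in dendritic cells. The Cdh2 region held 7 in 3T3, and the Cdh1 region 12 in 3T3 and 10 in dendritic cells. At Cdh1 the larger count was thus in 3T3, against 15 in 3T3 and 16 in dendritic cells with the full lists. The largest stretches were then 6 (Cdh11, 3T3), 5 (Cdh2, 3T3) and 4 (Cdh1, dendritic cells). Stretches depended on the joining distance: at 5 kb the largest held 4 (Cdh11, 3T3), 4 (Cdh2, 3T3), 2 (Cdh1, 3T3) and 4 (Cdh1, dendritic cells), and at 20 kb 34 (Cdh11, 3T3), 19 (Cdh1, 3T3) and 17 (Cdh1, dendritic cells). A stretch reaching past a limit was counted whole, so at 20 kb those of Cdh1 hold more summits than the region. The dendritic cell count of the Cdh11 region was 2 with limits 50 kb outward and 0 with limits 10% inward, and its one score was 0.541 of the median of the rest of chromosome 8. Against windows of chromosome 8 alone, a choice made after seeing the data, 95 and 80.8% had fewer 3T3 summits than the Cdh11 and Cdh1 regions. With windows empty in both lists kept, also chosen after seeing the data, 57.3% had fewer than the Cdh2 and 94.1% fewer than the Cdh1 region. No paired analysis was possible because each cell type has 1 library, and no library could be left out.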
